A study of Homo sapiens with 8 samples.

Results

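The clustered protocadherin genes are cell adhesion genes that lie in tandem on human chromosome 5. The members were the protein-coding genes whose symbol starts with PCDHA, PCDHB, PCDHGA, PCDHGB or PCDHGC followed by a number. This rule took 51 genes of the 58884 identifiers counted, of which 19945 are protein-coding. The alpha cluster gave 13 members, the beta cluster 16 and the gamma cluster 22, made up of 12 PCDHGA, 7 PCDHGB and 3 PCDHGC genes. The RNA came from U87, an established human glioblastoma cell line, and was sequenced after removal of ribosomal RNA. There were 4 groups of 2 libraries each: DMSO, the solvent control; AsiDNA, cells under long-term AsiDNA treatment; belinostat, cells given 1 µM belinostat for 24 h; and the combination, long-term AsiDNA cells given that same belinostat treatment. All groups were grown with 10% serum and 1% antibiotic. Belinostat inhibits histone deacetylases. AsiDNA, a small DNA duplex, mimics a broken DNA end and draws repair enzymes away from real breaks. Neither the dose of AsiDNA nor its duration is given in the sources used here, all groups are cells of the same line, and the labels do not say whether the libraries of a group came from separate cultures. The p-values therefore measure the spread between these libraries, which may be technical.

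Clustered protocadherins are single-pass membrane proteins that bind the same protein on a neighbouring cell through their cadherin repeats. In neurons each cell uses a small, largely random set of the promoters, which gives it a surface identity by which its own branches are told from those of other cells, while astrocytes and many other cells also express members. A member of the alpha or gamma cluster is read from its own large variable exon, which encodes the outer part, the membrane span and the start of the tail, and is spliced to constant exons used by the whole cluster. Beta genes have no constant exons. Most of the promoters carry a conserved element with the core CGCT, where the insulator protein CTCF binds.

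The alpha members lay at chr5:140786136-141012347 (GRCh38, outer ends over the members), the beta members at chr5:141051135-141249365 and the gamma members at chr5:141330571-141512981, all on the plus strand. The sequences at the splice junctions show why single values of the alpha and gamma members are uncertain. Each line gives the last 24 bases of a variable exon in lower case and the first 12 bases of the constant exon in capitals, 5′ to 3′:
PCDHA3: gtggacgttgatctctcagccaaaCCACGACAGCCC
PCDHA10: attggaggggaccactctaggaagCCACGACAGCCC
PCDHGA2: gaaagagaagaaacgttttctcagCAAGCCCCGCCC
PCDHGA11: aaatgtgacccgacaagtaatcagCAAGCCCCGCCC
PCDHGB7: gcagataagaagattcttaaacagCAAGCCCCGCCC
PCDHGC3: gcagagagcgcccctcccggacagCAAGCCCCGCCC
The part before the junction names the gene and the part after it does not. The constant exon that starts there was annotated in 13 of 13 alpha members at chr5:140978949-140979007 and in 22 of 22 gamma members at chr5:141494807-141494865, and has 59 bases in both clusters:
alpha constant exon: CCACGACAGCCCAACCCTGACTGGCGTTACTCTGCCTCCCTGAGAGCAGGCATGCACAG
gamma constant exon: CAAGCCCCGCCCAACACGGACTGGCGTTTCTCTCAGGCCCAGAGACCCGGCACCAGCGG
Of a member's annotated exonic bases, 21.3% to 63.1% were also exonic in another gene in the alpha cluster, 27.6% to 64.4% in the gamma cluster and 0% to 24.9% in the beta cluster. PCDHGB5 was at 0 counts in 3 libraries in which PCDHGC3 had 325 to 540, so reads on the shared gamma exons were not credited to every member. The variable exons of downstream members also lie within the introns of upstream ones, and unspliced RNA of an upstream member cannot be told apart from RNA of a downstream member. Beta genes share no exon by design but resemble each other: 45.8% of the 50-base stretches of PCDHB8 occur in another protocadherin gene, mostly PCDHB13, and 35.4% of those of PCDHB10, mostly in PCDHB9, against 12.8% for PCDHB12 and 0% for PCDHGC3.

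Promoter windows from 250 bases before to 50 after the RefSeq start (GRCh38.p14) were found for 45 of the 51 members. PCDHA3, PCDHA13, PCDHB6, PCDHB11, PCDHGA12 and PCDHGC5 had no entry. The windows below, 24 bases on the plus strand with the core CGCT in capitals, show the element in a nearly silent alpha gene, in beta genes that rose and did not, and in gamma genes that moved in opposite directions:
PCDHA10: caccggatgtCGCTgtcgtccaca
PCDHB10: cacacggtggCGCTgcaggctaaa
PCDHB12: cgcgtggtggCGCTgcaggataat
PCDHB14: cacatggtggCGCTacaggataag
PCDHB13: cgcgtggtggCGCTgcaggataag
PCDHGA2: ctctgagcgtCGCTgttgaccacc
PCDHGA11: ctctaggcgcCGCTgctcaccaat
PCDHGC3: ctctgtgtgcCGCTgtcggccaat
They lie at chr5:140855847-140855870 for PCDHA10, chr5:141192305-141192328 for PCDHB10, chr5:141208649-141208672 for PCDHB12, chr5:141223269-141223292 for PCDHB14, chr5:141213871-141213894 for PCDHB13, chr5:141338709-141338732 for PCDHGA2, chr5:141420978-141421001 for PCDHGA11 and chr5:141475886-141475909 for PCDHGC3. Searched on both strands, CGCT alone was found in 44 of the 45 member promoters and in 70% of 35116 RefSeq promoters of that length. Longer strings that contain it were read from these same windows, so their counts in the members are a description only. GATGTCGCT was found in 9 of 11 alpha promoters, in no beta or gamma promoter and in 0.105% of all promoters. GGTGGCGCT was found in 13 of 14 beta promoters (not PCDHB1), in no alpha or gamma promoter and in 0.501% of all. GNCGCTGT was found in 17 of 20 gamma, 5 of 11 alpha and 1 of 14 beta promoters, and in 4.35% of all. The tested beta genes that rose and those that did not carried the same string, with no entry for PCDHB11.

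The libraries held 6057394 to 9699637 counts, so that 3 counts correspond to 0.292 to 0.506 CPM (counts-per-million with library sizes scaled by TMM). Members took 592 to 1230 counts of a library, and 36 to 42 of the 51 had any count in a given library. In all, 22 members passed the low-count filter: 10 beta, 7 PCDHGA, 2 PCDHGB, 3 PCDHGC and no alpha gene. A gene can pass that filter through 1 group alone, and the 22 do not stand for the other 29. Low-count members may thus be kept through the groups where they are high. Counts of signs and medians over the tested members are for that reason descriptions only. MALAT1 and NEAT1, nuclear RNAs, together took 12.2% and 13.4% of counts in belinostat against 0.688% to 3.12% in the other groups, and DMSO replicate 2 stood at 2.81% against 0.911% in replicate 1. Their part in the results below was not tested. Mesenchymal glioma markers were all measured (6 of 6 tested, summed level 9080 and 8580 CPM in belinostat and 13200 to 17500 CPM in the other groups). Of 8 astrocyte markers 4 were tested, and of 12 neuronal markers 5. The astrocyte markers GJA1 and SLC1A3 had 19640 and 3346 counts over all libraries, while GFAP had 8. The neuronal markers SNAP25 and TUBB3 had 4369 and 793 counts, while STMN2, NEFL, NEFM and ELAVL4 had none. In bulk RNA, fewer cells that express a gene and less RNA per cell cannot be told apart.

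**Figure D1:**
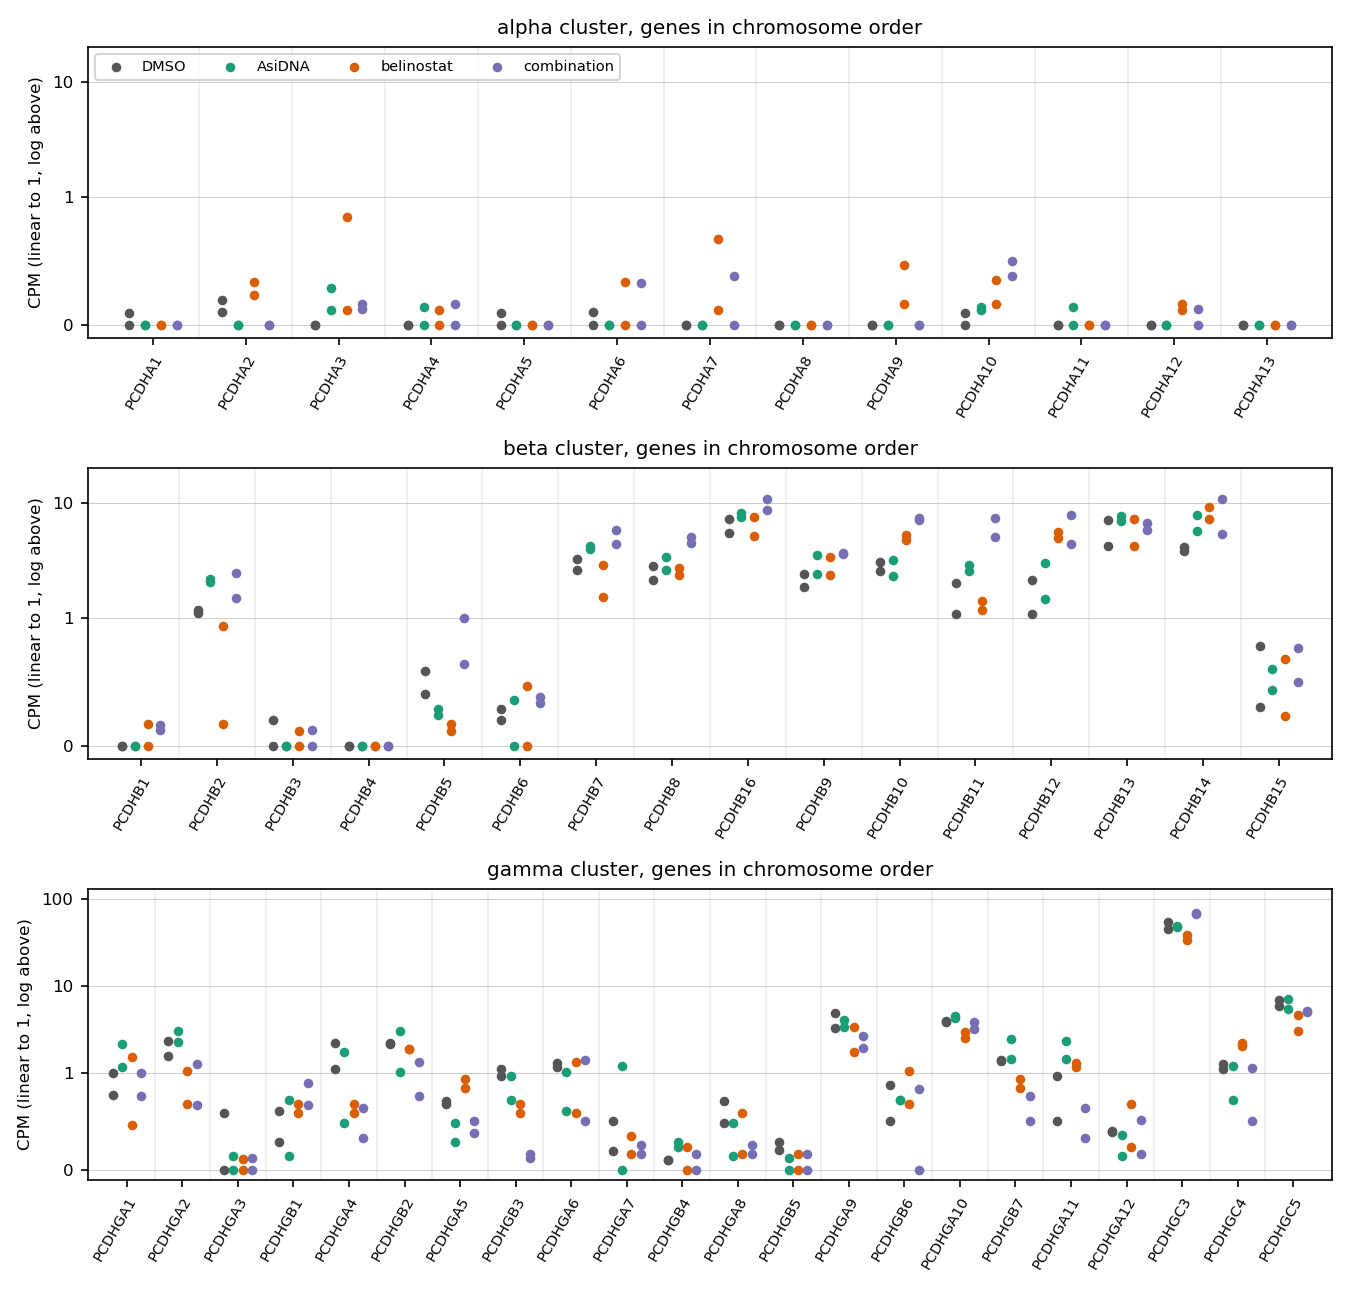
CPM of all 51 members in the 8 libraries, in chromosome order, on an axis that is linear up to 1 CPM and logarithmic above. Points are libraries, 2 per group. The alpha genes lie near 0, a run of beta genes from PCDHB7 to PCDHB14 lies above 1 CPM, and PCDHGC3 at 33.4 to 69 CPM exceeds every other member in every library.

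PCDHGC3 had the highest level of all members. This gene encodes a C-type gamma protocadherin, the kind that differs most in sequence from the other members of its cluster. Per kilobase of exonic sequence that no other gene shares, its level averaged 15.4 CPM over the 8 libraries, followed by PCDHB16 at 2 CPM per kb, PCDHGC5 at 1.91, PCDHB14 at 1.44, PCDHB10 at 1.36 and PCDHB8 at 1.26. PCDHGC3 alone made 59.1% to 77.4% of all gamma counts. The alpha cluster was close to silent, with 2 to 16 counts per library over 13 genes. PCDHA8, PCDHA13 and PCDHB4 had no count in any library, and PCDHB1 and PCDHB3 had 3 and 4 counts in all, whereas the beta genes from PCDHB7 onward, apart from PCDHB15 with 34 counts, passed the filter.

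Belinostat was first set against DMSO, that is, in cells that had no AsiDNA. Among the 22 tested members 3 passed an adjusted p of 0.05 upward and 1 downward, beside 29.8% of all 14741 tested genes higher and 27.6% lower. All 3 that rose were beta genes, which encode adhesion proteins with a short tail of their own. PCDHB12 stood at 2.12 and 1.07 CPM in DMSO, 3.01 and 1.45 in AsiDNA, 5.5 and 4.89 in belinostat, and 4.33 and 7.8 in the combination. Every library with belinostat lay above every library without it. Against DMSO, PCDHB12 rose by 1.71 ± 0.45 (log2 fold change ± standard error) with belinostat (adjusted p = 0.00518). PCDHB10 stood at 3.02 and 2.53 CPM in DMSO, 2.29 and 3.2 in AsiDNA, 5.26 and 4.73 in belinostat, and 7.33 and 7.03 in the combination. Here too the libraries with belinostat lay apart from those without it, and the 2 combination libraries were the highest. PCDHB10 rose by 0.85 ± 0.31 against DMSO (adjusted p = 0.0323). PCDHB14 stood at 3.83 and 4.08 CPM in DMSO, 5.66 and 7.84 in AsiDNA, 7.13 and 9.11 in belinostat, and 5.33 and 10.7 in the combination. Only the DMSO libraries were set apart for this gene, and the other 6 overlapped. PCDHB14 rose by 1.02 ± 0.33 with belinostat against DMSO (adjusted p = 0.0176). The 10 tested beta genes had a median log2 fold change of 0.05, beside 0.061 over all tested genes, with a range of -0.89 to 1.71. Without belinostat replicate 1 the 3 calls were lost (adjusted p = 0.0623 for PCDHB12, 0.2 for PCDHB10 and 0.0583 for PCDHB14). PCDHB10 was also lost without DMSO replicate 2, belinostat replicate 2 and either combination library (0.0813 to 0.0948). It was lost too in DESeq2 (0.192), by library size only (0.0622), without a low-count filter (0.129), with 1 CPM in 2 libraries (0.0503) and with only the compared groups fitted (0.11). PCDHB14 was lost without belinostat replicate 2 (0.168) and in DESeq2 (0.0645).

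The 1 member that fell was a gamma gene. PCDHGC3 stood at 53.2 and 44.5 CPM in DMSO, 48.4 and 47.2 in AsiDNA, 38.7 and 33.4 in belinostat, and 66.6 and 69 in the combination. Belinostat gave the lowest 2 libraries and the combination the highest 2, with DMSO and AsiDNA between them. PCDHGC3 fell by 0.43 on the log2 scale (standard error 0.14, adjusted p = 0.0178) with belinostat against DMSO and the other 11 tested gamma genes were not called. The call was lost without belinostat replicate 2 (adjusted p = 0.0621). PCDHGC5, the gamma gene nearest to the constant exons, stood at 6.86 and 5.93 CPM in DMSO, 5.42 and 6.97 in AsiDNA, 4.68 and 3.04 in belinostat, and 5 and 5.11 in the combination. Its difference from DMSO in belinostat, -0.69 ± 0.30, missed the threshold (adjusted p = 0.0593). It passed without DMSO replicate 2, without belinostat replicate 1, under library-size scaling and with other low-count filters. PCDHGC4 stood at 1.11 and 1.26 CPM in DMSO, 1.21 and 0.726 in AsiDNA, 2.22 and 2.03 in belinostat, and 0.5 and 1.15 in the combination. Its belinostat libraries were the highest, at 0.84 ± 0.50 above DMSO on the log2 scale (adjusted p = 0.17). Of the 12 tested gamma genes 9 had a negative log2 fold change, with a median of -0.46 and a range of -1.40 to 0.84. Both belinostat libraries lay below both DMSO libraries for 7 of the 12, beside 35.8% of all tested genes. The standard error reached 0.70 for PCDHGA4, so a change of the size seen in PCDHGC3 was not detectable in a gene of so few counts.

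**Figure D2:**
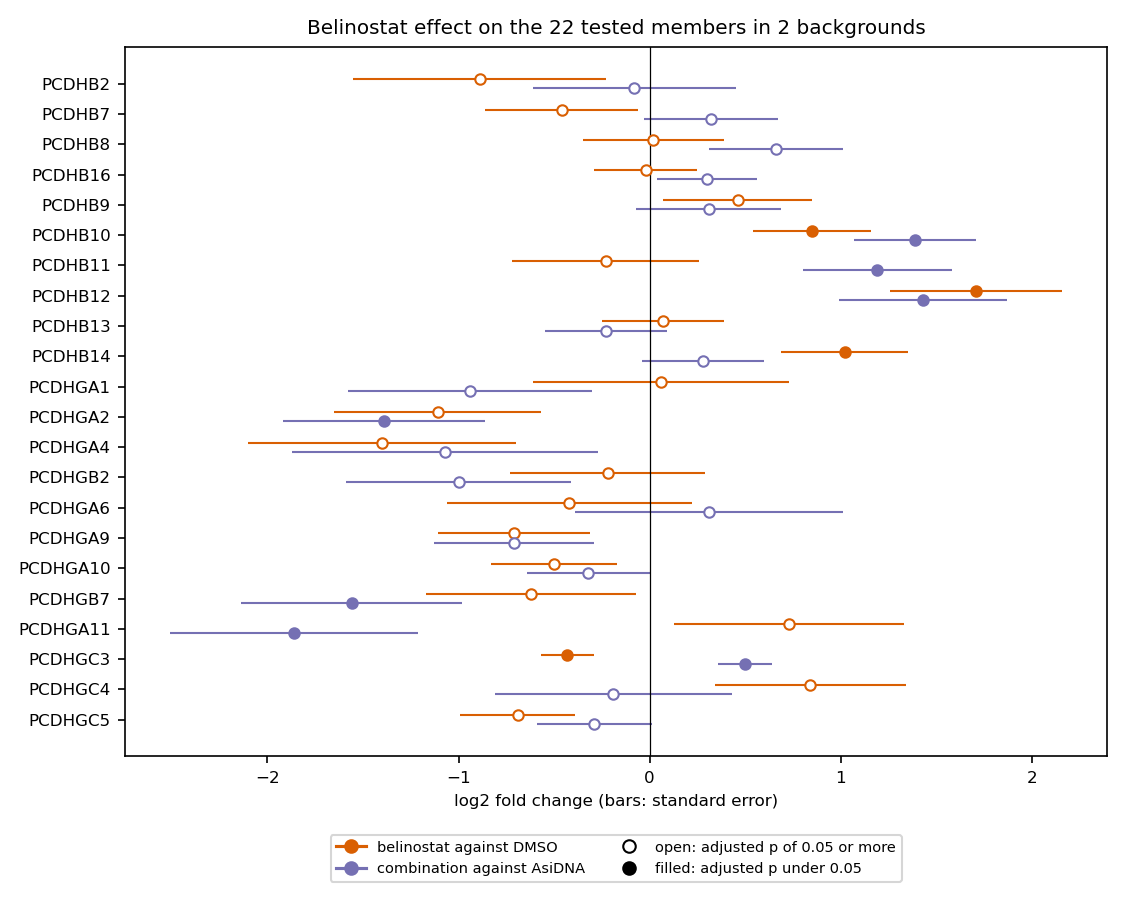
Log2 fold changes of the 22 tested members with standard errors as bars, for belinostat against DMSO and for the combination against AsiDNA, genes in chromosome order from top to bottom. Filled points passed an adjusted p under 0.05. PCDHB10 and PCDHB12 lie to the right in both comparisons, and PCDHGC3 lies at -0.43 in the first and at 0.50 in the second.

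The comparison of the combination with AsiDNA asks what belinostat changed in cells already on AsiDNA. Of the 22 tested members 4 were higher and 3 lower, beside 21.7% and 21.2% of all tested genes. Of the 4 higher members 3 were beta genes. PCDHB10 rose by 1.39 ± 0.32 (adjusted p = 0.00302) and PCDHB12 by 1.43 ± 0.44 (adjusted p = 0.0173). PCDHB11 stood at 2.02 and 1.07 CPM in DMSO, 2.53 and 2.9 in AsiDNA, 1.4 and 1.18 in belinostat, and 5 and 7.29 in the combination. The 2 combination libraries lay above the other 6, and the belinostat libraries overlapped with DMSO. PCDHB11 rose by 1.19 ± 0.39 against AsiDNA (adjusted p = 0.0231). The fourth call was PCDHGC3, which rose by 0.50 ± 0.14 (adjusted p = 0.00948). PCDHB14, higher in belinostat against DMSO, differed from AsiDNA by 0.28 ± 0.32 (adjusted p = 0.512). Without AsiDNA replicate 1 all 4 calls but that of PCDHB12 were lost (adjusted p = 0.0503 for PCDHB10, 0.144 for PCDHB11 and 0.0723 for PCDHGC3). Without AsiDNA replicate 2 or combination replicate 2 only PCDHB10 was kept, the others lying at 0.0828 to 0.255. In DESeq2 PCDHB11 was lost (0.108).

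The 3 members that fell were low-count gamma genes of the PCDHGA and PCDHGB kind. PCDHGA2 stood at 2.32 and 1.55 CPM in DMSO, 2.29 and 3.05 in AsiDNA, 1.05 and 0.675 in belinostat, and 0.666 and 1.28 in the combination. Its 4 libraries with belinostat lay below the 4 without. PCDHGA2 fell by 1.39 on the log2 scale (standard error 0.53, adjusted p = 0.0461) in the combination against AsiDNA. PCDHGB7 stood at 1.41 and 1.36 CPM in DMSO, 1.45 and 2.47 in AsiDNA, 0.935 and 0.844 in belinostat, and 0.5 and 0.767 in the combination. It was likewise lower in the 4 libraries with belinostat, and it fell by 1.56 (standard error 0.58, adjusted p = 0.0449) against AsiDNA. PCDHGA11 stood at 0.504 and 0.972 CPM in DMSO, 1.45 and 2.32 in AsiDNA, 1.29 and 1.18 in belinostat, and 0.333 and 0.639 in the combination. For PCDHGA11 the AsiDNA libraries were the highest, and DMSO and the combination overlapped. It fell by 1.86 against AsiDNA (standard error 0.65, adjusted p = 0.0329). Each of these 3 calls was lost when any 1 AsiDNA, belinostat or combination library was left out (adjusted p = 0.0584 to 0.29) and in DESeq2 (0.129 to 0.174), and with the replicate number as a block PCDHGA2 (0.0592) and PCDHGB7 (0.0551) were lost. Of the 9 tested PCDHGA and PCDHGB genes 8 had a negative log2 fold change in this comparison, with a median of -1 beside 0.015 over all tested genes. Genes of so few counts can pass the low-count filter through the groups where they are high, so this tally is a description only.

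The other PCDHGA and PCDHGB genes with the most counts were not called in either comparison. PCDHGA10 stood at 3.83 and 3.98 CPM in DMSO, 4.22 and 4.5 in AsiDNA, 2.92 and 2.53 in belinostat, and 3.83 and 3.2 in the combination. PCDHGA9 stood at 4.84 and 3.3 CPM in DMSO, 3.37 and 4.07 in AsiDNA, 1.75 and 3.38 in belinostat, and 2.66 and 1.92 in the combination. Both genes had their lowest libraries among the 4 with belinostat, and PCDHGA9 overlapped between DMSO and belinostat. PCDHGB2 stood at 2.22 and 2.14 CPM in DMSO, 3.01 and 1.02 in AsiDNA, 1.87 and 1.86 in belinostat, and 1.33 and 0.767 in the combination. PCDHGA1 stood at 1.01 and 0.777 CPM in DMSO, 2.17 and 1.16 in AsiDNA, 0.468 and 1.52 in belinostat, and 0.999 and 0.767 in the combination. The 2 AsiDNA libraries of PCDHGB2 and the 2 belinostat libraries of PCDHGA1 lay far apart, at 25 and 7 counts for the first and 4 and 9 for the second. Among these 4 genes the log2 fold changes ran from -0.71 to 0.06 for belinostat against DMSO and from -1 to -0.32 for the combination against AsiDNA, and none passed the threshold. Untested members of the PCDHGA and PCDHGB kind had 8 to 45 counts over all libraries. PCDHGB3, with the most of them, had 11 and 10 counts in DMSO, 8 and 5 in AsiDNA, 5 and 4 in belinostat, and 1 and 1 in the combination, so the last group rests on almost no reads. With 1 CPM in 2 libraries as the filter, PCDHGB3 was called lower in the combination against AsiDNA and against DMSO. Without a low-count filter it was called lower in the combination against DMSO only.

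No alpha gene passed the low-count filter, and mainly their sum is described. Without that filter 48 members were tested, among them the 11 alpha genes with any count, and no alpha gene was called in any comparison. Over the 2 libraries of a group the 13 genes together had 29 counts in belinostat and 15 in the combination, against 7 in DMSO and 7 in AsiDNA. Their summed level was 0.202 and 0.486 CPM in DMSO, 0.241 and 0.726 in AsiDNA, 1.52 and 2.7 in belinostat, and 1.17 and 1.02 in the combination. All 4 libraries with belinostat lay above all 4 without it. The ratio of belinostat to DMSO was 5.78 (exact 95% interval 2.48 to 15.6) and that of the combination to AsiDNA 2.35 (0.903 to 6.82). These intervals cover counting error only, and the second includes a ratio of 1. The counts were spread over 8 alpha genes in belinostat and 6 in the combination, none with more than 13 counts in all. PCDHA10 had 13 counts and PCDHA3 had 11, and no order among alpha genes was detectable at this depth. The C-type alpha genes PCDHAC1 and PCDHAC2, which the rule leaves out, had 1 and 2 counts.

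Long-term AsiDNA alone gave no called member. Of the 22 tested, 0 were higher and 0 lower against DMSO by edgeR, beside 0% and 0.0204% of all tested genes. At an unadjusted p under 0.05 there were 2, PCDHB14 (0.76 ± 0.34) and PCDHGA11 (1.31 ± 0.56), and DESeq2 called 0 of the 13 members to which it gave an adjusted p. Among the beta genes, 9 of 10 had a positive log2 fold change, with a median of 0.46 beside 0.028 over all tested genes, and both AsiDNA libraries lay above both DMSO libraries for 5 of 10, beside 21% of all. PCDHGC3 differed by -0.03 ± 0.14. Without DMSO replicate 1, PCDHB11 and PCDHB13 were called higher, and the number of genes called in the whole table went from 3 to 4955, whereas without DMSO replicate 2 it was 62 and no member was called.

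The combination against belinostat alone sets long-term AsiDNA cells given belinostat against cells without AsiDNA given the same belinostat treatment. Of the 22 tested members 4 were higher and 0 lower by edgeR, beside 22% and 21.4% of all tested genes. An unadjusted p under 0.05 was reached by 7, and DESeq2 called 2 higher and 0 lower. PCDHB11 rose by 2.23 ± 0.43 (adjusted p = 0.00158) and PCDHGC3 by 0.90 ± 0.14 (adjusted p = 0.000559). Both were called in all 17 alternative settings, PCDHB11 at 1.97 to 2.54 and PCDHGC3 at 0.86 to 1.07 when any library was left out. PCDHB7 stood at 3.23 and 2.62 CPM in DMSO, 4.22 and 3.92 in AsiDNA, 1.52 and 2.87 in belinostat, and 4.33 and 5.75 in the combination. The combination libraries were the highest, and PCDHB7 rose by 1.25 ± 0.39 (adjusted p = 0.0193). PCDHB2 stood at 1.11 and 1.17 CPM in DMSO, 2.05 and 2.18 in AsiDNA, 0.935 and 0.169 in belinostat, and 1.5 and 2.43 in the combination. Belinostat replicate 2 was far below the others for PCDHB2, which rose by 1.69 ± 0.64 (adjusted p = 0.0461). All 10 tested beta genes had a positive log2 fold change, with a median of 0.57 beside -0.008 over all tested genes. PCDHB7 was lost without belinostat replicate 1 (adjusted p = 0.161) and without combination replicate 2 (0.149), and in DESeq2 (0.0585). PCDHB2 was lost without either AsiDNA library, belinostat replicate 2 or either combination library (0.0578 to 0.284), in DESeq2 (0.114), by library size only (0.0583) and with the replicate number as a block (0.0585). Its log2 fold change went to 1.13 without belinostat replicate 2 and to 3.49 without belinostat replicate 1.

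**Figure D3:**
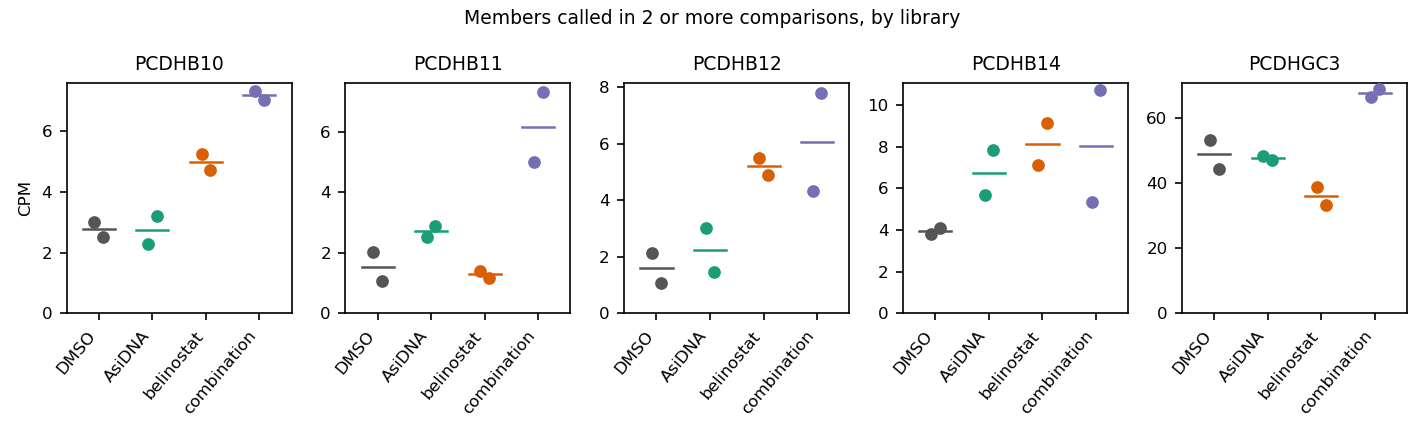
CPM of the 5 members called in at least 2 comparisons, by group. Points are libraries and lines are means of 2. PCDHB10 and PCDHB12 are higher in all 4 libraries with belinostat, PCDHB11 is high in the combination alone (5 and 7.29 CPM), and PCDHGC3 is lowest in belinostat and highest in the combination.

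The combination against DMSO, which sets both agents against neither, gave 6 members higher and 0 lower by edgeR, beside 24.3% and 23.7% of all tested genes. An unadjusted p under 0.05 was reached by 9, and DESeq2 called 5 higher and 0 lower. All of these comparisons share libraries with each other, so their calls are not independent. PCDHB11 rose by 2 ± 0.40 (adjusted p = 0.00106), PCDHB12 by 1.94 ± 0.44 (0.0026), PCDHB10 by 1.36 ± 0.30 (0.00232), PCDHB14 by 1.04 ± 0.33 (0.019) and PCDHGC3 by 0.47 ± 0.14 (0.0114). PCDHB8 stood at 2.12 and 2.82 CPM in DMSO, 3.37 and 2.61 in AsiDNA, 2.34 and 2.7 in belinostat, and 4.5 and 4.98 in the combination. It rose by 0.94 ± 0.34 (adjusted p = 0.0371), and its combination libraries were the only ones that stood apart. Both combination libraries lay above both DMSO libraries for 9 of 10 tested beta genes, beside 35.7% of all tested genes, and the median beta log2 fold change was 0.87 beside -0.013. The 9 tested PCDHGA and PCDHGB genes all had a negative log2 fold change, with a median of -0.84, and none was called. For 6 of these 9 both combination libraries lay below both DMSO libraries, beside 35.2% of all tested genes. Without combination replicate 2 only PCDHB10 and PCDHB11 were kept, PCDHB14 going to 0.38 (adjusted p = 0.483), PCDHB12 to 0.0756, PCDHGC3 to 0.106 and PCDHB8 to 0.211. PCDHGC3 was also lost without combination replicate 1 (0.0533), and PCDHB8 without any other library but DMSO replicate 2 (0.0506 to 0.108). By library size only PCDHB8 (0.0947), PCDHB14 (0.0584) and PCDHGC3 (0.0662) were lost. Without a low-count filter PCDHB8 (0.0842) and PCDHGC3 (0.0667) were lost, with only the compared groups fitted PCDHB8 (0.0879) and PCDHB14 (0.0742), and in DESeq2 PCDHB8 (0.165). The beta genes with the highest counts that no comparison called were PCDHB16 and PCDHB13. PCDHB16 stood at 7.16 and 5.44 CPM in DMSO, 7.47 and 8.13 in AsiDNA, 5.14 and 7.43 in belinostat, and 10.7 and 8.69 in the combination. PCDHB13 stood at 7.06 and 4.18 CPM in DMSO, 7.71 and 6.97 in AsiDNA, 7.25 and 4.22 in belinostat, and 5.83 and 6.65 in the combination. PCDHB16 was highest in the combination (0.61 ± 0.26 against DMSO, adjusted p = 0.0671), and the groups overlapped for PCDHB13.

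Whether belinostat acted differently in AsiDNA cells was tested as an interaction, the log2 fold change of the combination against AsiDNA minus that of belinostat against DMSO. No member passed by edgeR (0 higher and 0 lower of 22, beside 0% and 0.00678% of all tested genes), 3 had an unadjusted p under 0.05. DESeq2 gave an adjusted p to 1 member only, PCDHGC3, and called it among 679 genes in all. PCDHGC3 came nearest, with a difference of 0.94 ± 0.20 (unadjusted p = 0.000339, adjusted p = 0.0636): both belinostat libraries lay below both DMSO libraries, and both combination libraries lay above both AsiDNA libraries. It was called in 6 of 16 alternative settings, among them DESeq2 (adjusted p = 0.00757), library-size scaling (0.0442) and the fits without DMSO replicate 1 (0.000977) and without DMSO replicate 2 (3.84e-07). Leaving out any library of the other groups gave 0.125 to 0.343, with the difference at 0.91 to 1.12. PCDHGA11 had a difference of -2.59 ± 0.89 (adjusted p = 0.13) and PCDHB11 of 1.42 ± 0.62 (adjusted p = 0.204), and both passed only without DMSO replicate 2 (0.0202 and 0.0184). The DMSO libraries moved this test over the whole table: 5358 of 15471 tested genes passed without DMSO replicate 2 and 1020 of 15679 without DMSO replicate 1, against 1 of 14741 with both.

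Sums over each gene group are given without a test. The 16 beta genes summed to 35.2 and 28.5 CPM in DMSO, 41.9 and 43.4 in AsiDNA, 40.8 and 40.7 in belinostat, and 54.5 and 67 in the combination. Both single treatments lay above DMSO and the combination above both. The 19 PCDHGA and PCDHGB genes summed to 23.4 and 22.3 CPM in DMSO, 24.3 and 24 in AsiDNA, 16.1 and 18.1 in belinostat, and 14.2 and 13.9 in the combination. The 4 libraries with belinostat were the lowest, with means of 17.1 ± 1.4 (SD, n = 2) and 14 ± 0.16 against 22.9 ± 0.74 in DMSO and 24.2 ± 0.27 in AsiDNA. The 3 PCDHGC genes, mostly PCDHGC3, summed to 61.2 and 51.7 CPM in DMSO, 55.1 and 54.9 in AsiDNA, 45.6 and 38.5 in belinostat, and 72.1 and 75.3 in the combination. The PCDHGC sum was thus lowest in belinostat and highest in the combination, as PCDHGC3 was, whereas PCDHGC4 was highest in belinostat and PCDHGC5 was lower in the combination than in DMSO. The PCDHGA and PCDHGB sum was low in both groups with belinostat, although PCDHGA11 in belinostat lay above DMSO.

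**Figure D4:**
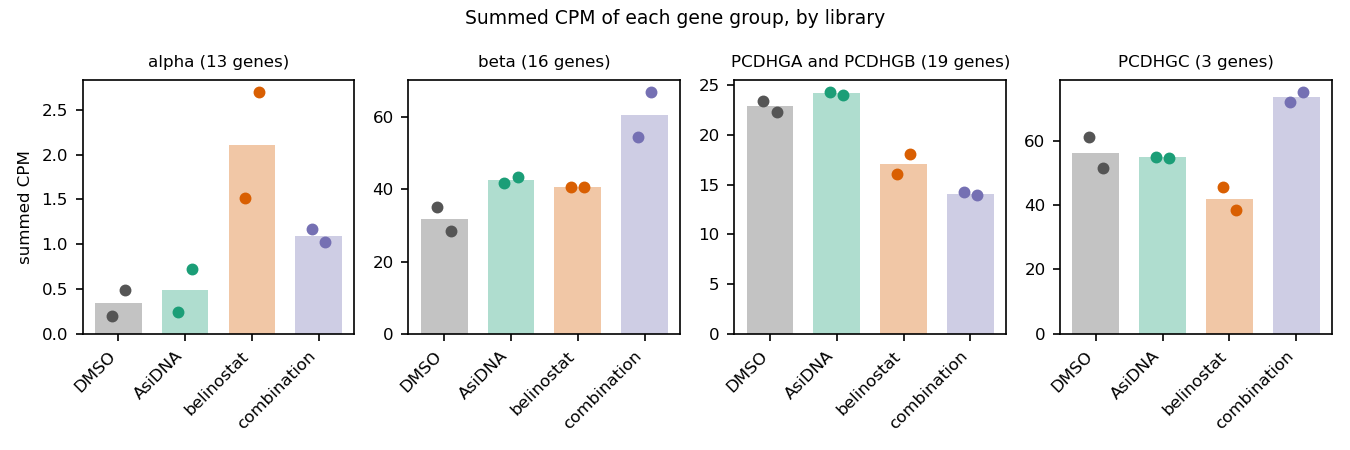
Summed CPM of the alpha genes, the beta genes, the PCDHGA and PCDHGB genes and the PCDHGC genes. Bars are means of 2 libraries and points are libraries, and each panel has its own axis from 0. The alpha sum reaches 2.7 CPM at most, the beta sum is highest in the combination, and the PCDHGC sum is low in belinostat and high in the combination.

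Shares within the clusters do not depend on how libraries were scaled. PCDHGC3 made 62.9% and 60.1% of gamma counts in DMSO, 61% and 59.9% in AsiDNA, and 62.7% and 59.1% in belinostat. In the combination it made 77.2% (exact 95% interval 73.4% to 80.8%) and 77.4% (74.1% to 80.4%). Only the combination stood apart, and its intervals, which cover counting error alone, did not meet those of the other 6 libraries. The beta genes made 29.3% and 27.6% of all member counts in DMSO, 34.5% and 35.3% in AsiDNA, 39.2% and 40.7% in belinostat, and 38.4% and 42.6% in the combination. DMSO was lowest, and belinostat and the combination overlapped.

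**Figure D5:**
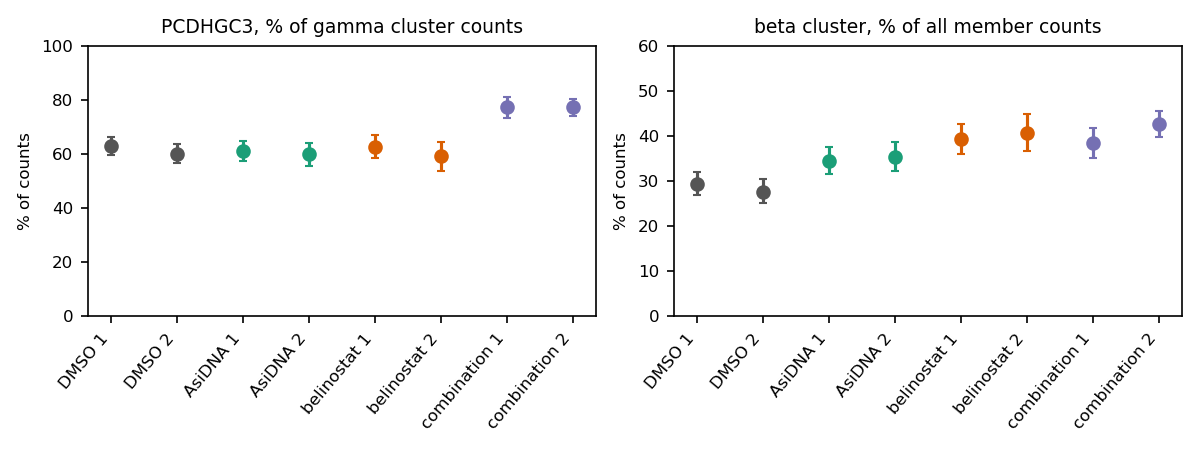
Share of gamma counts that came from PCDHGC3 (left) and share of all member counts that came from beta genes (right), by library, with exact 95% binomial intervals. PCDHGC3 is at 59.1% to 62.9% in 6 libraries and at 77.2% and 77.4% in the combination.

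Genes known to act on the clusters were measured beside the members. Of 21 tested regulators 10 fell and 0 rose with belinostat against DMSO, beside 27.6% and 29.8% of all tested genes, and 9 fell and 0 rose in the combination against AsiDNA, beside 21.2% and 21.7%. CTCF, the insulator protein that binds the promoter element, stood at 78.6 and 70.4 CPM in DMSO, 77.1 and 82.9 in AsiDNA, 30.4 and 33.1 in belinostat, and 35.5 and 39.6 in the combination. It fell by 1.23 (adjusted p = 5.42e-06) and by 1.09 (2.71e-05) on the log2 scale. The cohesin genes STAG1 and SMC1A fell by 1.63 and 1.40 with belinostat against DMSO (3.61e-07 and 7.21e-07), and DNMT1, which maintains DNA methylation, fell by 1.29 (2.04e-06). SMCHD1, a chromatin protein that represses the clusters, fell by 0.48 (0.00289) and by 0.56 (0.00158). SMC3, also a cohesin gene, differed by -0.13 and -0.19 in the 2 comparisons (0.442 and 0.283). TRIM28 fell by 0.69 with belinostat against DMSO (0.000213) and differed by -0.17 in the combination against AsiDNA (0.241). CTCF, STAG1, SMC1A, DNMT1 and SMCHD1 were lower with belinostat in both comparisons. In the same libraries PCDHB10 and PCDHB12 were higher and the PCDHGA and PCDHGB sum was lower. In those libraries PCDHGC3 was lowest in belinostat and highest in the combination. The part of the regulators in the members' values was not tested.

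Of 16 tested genes beside and between the clusters, 7 rose and 5 fell with belinostat against DMSO, where 29.8% of all tested genes rose and 27.6% fell. In the combination against AsiDNA 7 rose and 5 fell, where 21.7% of all rose and 21.2% fell. HDAC3, a histone deacetylase gene downstream of the gamma cluster, rose by 1.61 (adjusted p = 2.9e-07) and by 1.36 (2.1e-06). RELL2 and FCHSD1 beside it rose by 2.46 and 2.06 with belinostat against DMSO (5.31e-07 and 4.29e-06), whereas DIAPH1, an actin regulator that lies between the gamma cluster and HDAC3, fell by 0.84 in both comparisons (5.98e-05 and 0.000101). TAF7, a general transcription factor gene between the beta and gamma clusters, fell by 0.60 with belinostat (0.001) and differed by -0.26 in the combination against AsiDNA (0.112).

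Protocadherin genes that lie outside the clusters, each with a promoter and exons of its own, were also measured. Of 6 tested, 4 rose and 1 fell with belinostat against DMSO, where 29.8% of all tested genes rose and 27.6% fell. In the combination against AsiDNA 4 rose and 0 fell, where 21.7% of all rose and 21.2% fell. PCDH1, which lies near the clusters, is counted here and among the neighbours. It rose in both comparisons but had few counts, 1 and 5 in DMSO and 6 and 4 in AsiDNA. PCDH10 stood at 1.41 and 1.85 CPM in DMSO, 1.33 and 1.74 in AsiDNA, 8.77 and 8.1 in belinostat, and 9.16 and 5.5 in the combination, and it rose by 2.36 (adjusted p = 7.93e-05) against DMSO. PCDH18 rose by 1.62 (0.00011) and PCDH9 by 1.04 (9.96e-05), while PCDH7 fell by 0.70 (0.00336). Of 6 tested classical and desmosomal cadherins 3 rose and 3 fell with belinostat against DMSO, beside the same 29.8% and 27.6% of all tested genes. CDH24 rose by 2.07 (adjusted p = 2.44e-05), and CDH2, which encodes N-cadherin, fell by 1.18 (adjusted p = 4.67e-05). Of 19 tested partners, which act below the protocadherins or cleave them, 7 rose and 6 fell with belinostat against DMSO, shares near the 29.8% and 27.6% of all tested genes. PTK2B, a focal adhesion kinase bound by protocadherin tails, rose by 3.23 (1.18e-07), and of the WAVE complex genes CYFIP2 rose by 1.49 (2.68e-06) while CYFIP1 and NCKAP1 fell by 1.01 (8.43e-06) and 1.15 (8.51e-06).

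Some markers of other cell types moved with belinostat against DMSO as well, where 29.8% of all tested genes rose and 27.6% fell. Of 5 tested neuronal markers 4 rose and 0 fell against DMSO: SYP, MAP2, SNAP25 and SYT1, by 5.18, 2.61, 1.40 and 2.21. The fifth, TUBB3, differed by -0.20 (adjusted p = 0.374). The summed level of the 12 markers was 56.2 to 75 CPM in the libraries without belinostat and 193 to 220 CPM in those with it, while RBFOX3, DCX and ELAVL3 had 1, 2 and 3 counts in all. The part of these genes in the members' values was not tested. Of 4 tested astrocyte markers 2 rose, SLC1A2 by 2.23 (adjusted p = 0.00302) and FABP7 by 3.57 (0.00324), and of 6 mesenchymal markers CHI3L1 rose by 3.71 (5.83e-06) while VIM fell by 1.66 (7.72e-06).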

How the data were processed

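Per the labels' protocols, RNA of the 8 U87 samples was isolated with a Roche HiPure kit, depleted with Ribo-Zero Gold and made into TruSeq stranded total RNA libraries. The submitters' processing notes name cutadapt, STAR 2.7.0 and featureCounts 1.6.3 of the Subread package, with GRCh38 as the build. What the authors deposited is a table of whole-number counts for each gene with no normalization. Which annotation release and strand setting they used, and how reads on shared exons were treated, is not given in the sources used here, so overlapping genes are uncertain. Gene types, exons and coordinates came from a GENCODE annotation of GRCh38, promoters from RefSeq.

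Libraries were put in 4 groups of 2 by title. The counts were analysed in R 4.3.3 with edgeR 4.0.16: filterByExpr (14741 genes), TMM factors, 1 fit of all 8 libraries (4 residual degrees of freedom), quasi-likelihood F-tests and Benjamini-Hochberg adjustment over all tested genes, with calls at an adjusted p under 0.05. A standard error is the log2 fold change divided by the square root of F. The steps were tested on simulated data. The 8 identifiers without a name stayed in the fit. The total counts per library and the level of 3 counts stand with the results and set the precision of low genes.

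The members, gene lists and tests were chosen with earlier results of these data known. Named with values in every library were the 4 tested members of each gene group with the most counts and every called member. From each list up to 4 genes with the smallest adjusted p for belinostat against DMSO, and some regulators and neighbours, were named with their log2 fold changes, and CTCF and PCDH10 also with each library's value. DESeq2 leaves the adjusted p of some low genes empty, and these stayed out of its counts. The alternatives left out each library in turn, used DESeq2 1.42.0, scaled by RLE factors or by library size alone, dropped the low-count filter or asked for 1 CPM in 2 libraries, fitted only the compared groups, added the replicate number as a block, tightened the adjusted p to 0.01, tested against a 1.5-fold change, and took other denominators for the sums.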

Additional observations from a re-analysis of the deposited data

How the results depend on the processing

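No called member changed direction under any alternative. Of 21 calls, 4 held in all 17 alternatives: PCDHB11 and PCDHGC3 in the combination against belinostat, and PCDHB10 and PCDHB11 in the combination against DMSO. The other 17 were lost in at least 1 fit without a library, where the lone library of a group was assumed to vary like the others.

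For belinostat against DMSO, the 3 higher members became 1 in DESeq2, at an adjusted p under 0.01 and against a 1.5-fold change, and 0 to 3 without a library. The 1 lower member became 2 by library size only, without a filter and with 1 CPM in 2 libraries, 0 at the stricter p and against 1.5-fold, and 0 to 4 without a library. For AsiDNA against DMSO, 0 higher became 0 to 2 without a library. For the combination against AsiDNA, 4 higher became 2 at the stricter p, 1 against 1.5-fold and 1 to 4 without a library, and 3 lower became 0 in DESeq2, at the stricter p and against 1.5-fold, 1 with the replicate block, and 0 to 3 without a library. For the combination against belinostat, 4 higher became 2 in DESeq2, at the stricter p and against 1.5-fold and 2 to 6 without a library, and 0 lower became 1 with only the groups compared. For the combination against DMSO, 6 higher became 3 by library size only, at the stricter p and against 1.5-fold, and 2 to 7 without a library, and 0 lower became 2 without a filter, 1 with 1 CPM in 2 libraries, 1 with the replicate block, and 0 to 1 without a library. In the interaction, 0 higher became 1 by library size only, in DESeq2, without a filter and with 1 CPM in 2 libraries, and 0 to 2 without a library, and 0 lower became 0 to 1.

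Scaling by library size only moved the median of all tested genes to -0.118 in the combination against AsiDNA and to -0.204 against DMSO. The log2 ratio of summed PCDHGA and PCDHGB levels went from -0.42 to -0.56 (belinostat against DMSO), from -0.78 to -0.92 (combination against AsiDNA) and from 0.08 to 0.02 (AsiDNA against DMSO) by library size only. With protein-coding counts without the 10 most abundant genes as denominator the last 2 were -0.84 and 0.01, and that of the combination against belinostat went from -0.28 to -0.50. The PCDHGC ratio of the combination against AsiDNA went from 0.42 to 0.29 and 0.36 with these denominators, and against belinostat from 0.81 to 0.60 with the second, as the beta ratio did from 0.57 to 0.35.

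The titles number the replicates 1 and 2 in each group, but nothing says that a number marks a shared culture, and deviations of same-numbered libraries correlated at -0.24 to 0.15. With the replicate block the calls of PCDHGA2, PCDHGB7 and PCDHB2 were lost, PCDHGA4 became lower in the combination against DMSO, and no other call changed. Depth limits the alpha genes and most PCDHGA and PCDHGB genes, where a few counts decide a value.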
